A study of Macaca mulatta with 136 samples.

Results

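Enzymes that cut the extracellular matrix, and the proteins that hold them in check, were described as a family of 48 genes: every gene identifier of the files whose assigned symbol is a numbered MMP (22 genes), ADAMTS (18 genes) or ADAMTSL (5 genes), together with TIMP1, TIMP2 and TIMP4. They are 48 of 19422 gene identifiers, and each of their symbols has 1 entry. The tissue came from 2 adult rhesus macaques, called RM03 and RM04, whose eyes were taken postmortem with no treatment or genotype stated. Both eyes of each animal were sampled with 2 mm punches at the fovea/macula (fovea), perimacula and nasal retina and in the periphery, a temporal site. Each punch was divided into neural retina and a second layer, RPE/choroid, which holds the retinal pigment epithelium and the blood vessels and stroma beneath. The 32 poly-A RNA-seq libraries thus cover 4 eyes per tissue and location. The 4 eyes come from 2 animals, so p-values measure the spread between eyes and not between 4 animals.

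Matrix metalloproteinases (MMPs) are zinc-dependent proteases made as inactive precursors, and they are either secreted or held in the cell membrane. The ADAMTS enzymes are secreted zinc proteases that cut proteoglycans, procollagens, von Willebrand factor and other matrix proteins, while the ADAMTS-like proteins share their non-catalytic domains but have no protease domain. TIMPs are secreted proteins that block the active site of these enzymes, and TIMP3 is not among the members described here. In the back of the eye this system is known for the turnover of Bruch's membrane, the sheet of matrix between the pigment epithelium and the choroid, and of the matrix around photoreceptors and retinal vessels.

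Library totals ranged from 42448903 to 78574055 estimated counts. The fovea, perimacula and nasal libraries shared 2 flow cells and the periphery libraries had a flow cell of their own, so location and flow cell cannot be told apart in any comparison with the periphery. Levels are given as CPM, counts scaled to library size with TMM normalization, always in the order RM03 right eye, RM03 left eye, RM04 right eye and RM04 left eye, and they are not compared between genes because transcript lengths were not used. The tissues carried their own markers: the summed level of 9 rod genes was 4013 to 4610.1 CPM in foveal retina and 23891 to 28040.5 CPM in peripheral retina but at most 924 CPM in RPE/choroid, and RPE65, the retinoid isomerase of the pigment epithelium, was at 52.2 to 219 CPM in retina and 481 to 8596 CPM in RPE/choroid. In 4 RPE/choroid libraries the summed level of 5 Schwann cell genes was over 1000 CPM (6405 and 1574 CPM at the perimacula of RM03 right and RM04 left, 3446 and 10134 CPM at the periphery of RM03 right and left), against 247 to 828 CPM in the other 12. The rod sum was over 500 CPM in 3 RPE/choroid libraries (fovea of RM04 right, periphery of RM03 right and RM04 left). In such bulk tissue, fewer cells of a type and less RNA per cell cannot be told apart.

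Some members were hardly present in either tissue. MMP26 and MMP27 had no counts in any of the 32 libraries, and MMP10 and MMP20 had at most 6 counts in any of them. A count of 0 allows up to 3 counts, which is 0.0382 to 0.0707 CPM depending on the library. The stromelysin MMP3 was at 0 in every retinal library and at 0 to 0.423 CPM in RPE/choroid. ADAMTS20, a proteoglycan-cleaving enzyme known from melanoblast migration, was at 0.0174 to 0.215 CPM in retina and had 1 count in all 16 RPE/choroid libraries together, and MMP12, the macrophage elastase, was at 0.0348 to 0.238 CPM in retina and 0 to 0.269 CPM in RPE/choroid. These 7 members, the collagenases MMP1 and MMP8, MMP19 and ADAMTS14 were too low in retina for the fovea-periphery test, which left 37 tested members there. In RPE/choroid the same 7 and the matrilysin MMP7 were too low, which left 40. Counts of called members below are over those tested, at an adjusted p under 0.05 in edgeR's quasi-likelihood test with Benjamini-Hochberg adjustment over all genes tested.

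The first comparison set retina against RPE/choroid at the same location. Most of the family was more abundant in RPE/choroid: at the fovea 25 of 41 tested members were higher there and 10 were higher in retina, 35 called in all, where 74.6% of all tested genes were called and 36.8% were called higher in RPE/choroid. The counts were 27 and 9 of 41 at the perimacula (background 75.6% called, 37.8% higher in RPE/choroid), 26 and 10 of 42 at the nasal location (76.2% and 38.6%) and 26 and 6 of 41 at the periphery (74.3% and 37.1%). At all 4 locations the same 23 members were called higher in RPE/choroid, where the background was 28.3% of genes, and the same 4 were called higher in retina, where it was 27%. Among the 23, MMP8, MMP19 and ADAMTS14 were too low in retina for the fovea-periphery test there. In the fits without nasal libraries they entered through RPE/choroid, so their direction followed from the filter. The same held there for MMP1, and for MMP7 through retina. These members are not left out of the counts above. Beside this, at the fovea 7 fibroblast genes summed to 97.8 to 109.5 CPM in retina and 2946 to 3836 CPM in RPE/choroid, 6 smooth muscle and pericyte genes to 63.7 to 71.7 and 5904 to 9162 CPM, and 7 endothelial genes to 267 to 323 and 1776 to 2726 CPM. Their part in the tissue differences was not tested. Most of the retinal fibroblast sum was PDGFRA (84.4 to 109 CPM over all retinal libraries). Most of the retinal endothelial sum was KDR (235 to 600 CPM), whose median was higher in retina (402 CPM) than in RPE/choroid (272 CPM). These retinal sums therefore do not stand for fibroblasts or endothelium alone. The plot of tissue differences shows how the members sit on either side of 0.

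**Figure D1:**
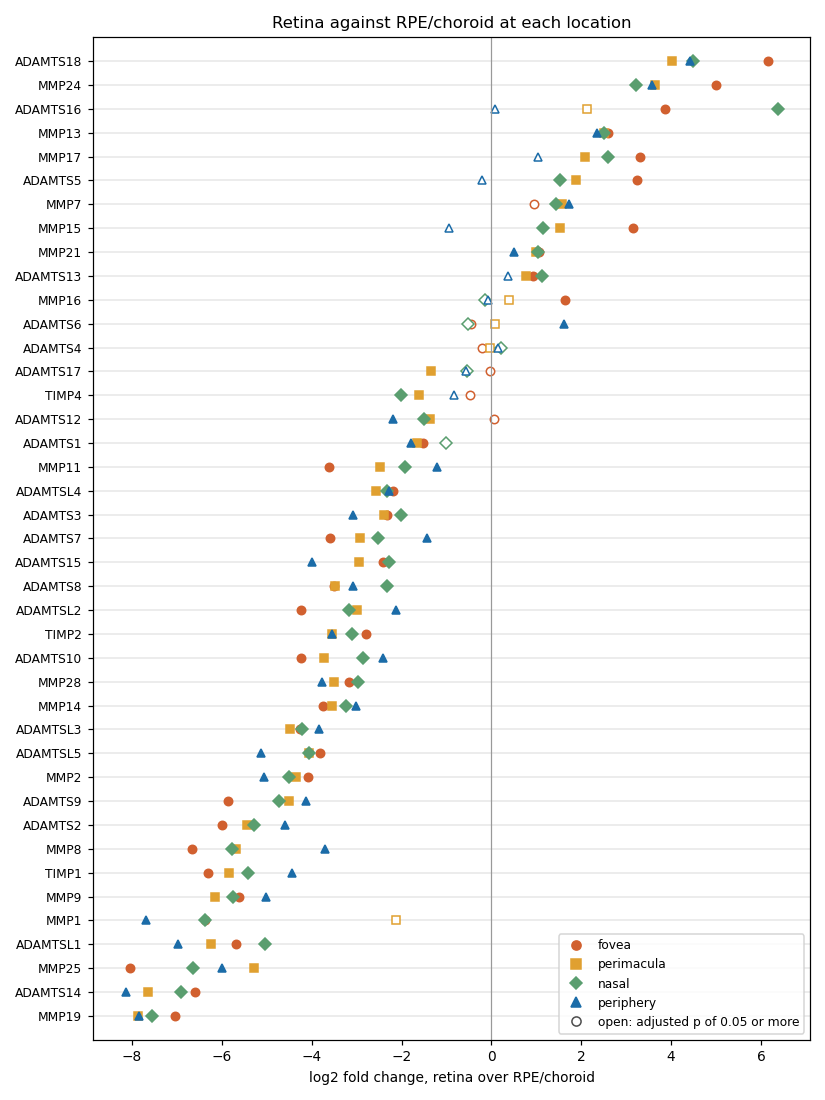
log2 fold change between retina and RPE/choroid (x axis, positive where retina is higher) for the 41 members tested at all 4 locations (rows), with colours and shapes for the location and filled symbols for an adjusted p under 0.05. TIMP1 and TIMP2 lie at negative values at every location, while MMP24, MMP13, ADAMTS18 and MMP21 lie at positive ones.

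Of the inhibitors, TIMP1 (ENSMMUG00000011426), the secreted inhibitor also known as a growth-promoting factor, was at 3.01, 2.49, 4.10 and 4.21 CPM in foveal retina and 263, 282, 314 and 251 CPM in foveal RPE/choroid. At the periphery it was at 9.56, 8.96, 13.6 and 12.2 CPM in retina and 208, 265, 269 and 207 CPM in RPE/choroid. The tissues did not overlap at any location. The log2 fold change of retina over RPE/choroid was -6.30 ± 0.23 (SE, adjusted p = 2.27e-15) at the fovea and -4.43 ± 0.21 (SE, adjusted p = 1.38e-13) at the periphery, with -5.83 at the perimacula and -5.43 at the nasal location.

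TIMP2 (ENSMMUG00000005355), which inhibits MMPs and also takes part in the activation of MMP2 by MMP14, was at 65.7, 59.1, 74.5 and 76.7 CPM in foveal retina and 461, 537, 468 and 473 CPM in foveal RPE/choroid. At the periphery the levels were 33.03, 26, 46.6 and 35.8 CPM and 352, 414, 474 and 403 CPM. Every RPE/choroid library again lay above every retinal library, with log2 fold changes from -3.55 ± 0.12 at the perimacula to -2.78 ± 0.12 at the fovea (SE, adjusted p = 9.80e-16 and 1.90e-14). TIMP4 was low in both tissues, at 0.0441 to 1.13 CPM in retina and 0.131 to 1.95 CPM in RPE/choroid. Its eyes were 0.882, 1.13, 0.264 and 0.133 CPM in foveal retina, 1.16, 1.43, 0.353 and 0.373 CPM in foveal RPE/choroid, 0.314, 0.0728, 0.284 and 0.603 CPM in peripheral retina and 0.407, 1.95, 0.131 and 0.588 CPM in peripheral RPE/choroid. At both sites the tissues overlapped, and no difference was called there (adjusted p = 0.542 and 0.286). At the nasal location it was at 0.240, 0.277, 0.187 and 0.0441 CPM in retina and 1.32, 1.31, 0.45 and 0.200 CPM in RPE/choroid, and at the perimacula at 0.263, 0.219, 0.409 and 0.129 CPM in retina and 1.53, 0.945, 0.707 and 0.442 CPM in RPE/choroid. It was called higher in RPE/choroid at the nasal location (log2 fold change -2.002 ± 0.69 SE, adjusted p = 0.0104) and at the perimacula (log2 fold change -1.61 ± 0.71 SE, adjusted p = 0.0460), but with the eye as a block the perimacular adjusted p was 0.0579, and without the RM03 right eye the nasal and perimacular adjusted p were 0.0746 and 0.207.

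Of the gelatinases, which cut denatured collagen and basement membrane collagen, MMP2 was at 750.0 to 1142 CPM over the 16 RPE/choroid libraries and 17.8 to 53.7 CPM in retina, and MMP9 at 33.8 to 229 and 1.36 to 2.93 CPM. MMP14, the membrane protease that activates MMP2, was at 239 to 457 CPM in RPE/choroid and 18.8 to 44.4 CPM in retina. These proteases and both inhibitors were thus higher in RPE/choroid at each location, MMP2 by 16.8-fold and MMP14 by 13.4-fold at the fovea. The membrane-anchored MMP25 and the secreted MMP19, which were at most 0.535 and 0.166 CPM in retina, were at 3.36 to 30.9 and 6.65 to 47.0 CPM in RPE/choroid. Among the ADAMTS enzymes, the procollagen N-proteinases ADAMTS2 and ADAMTS14 had wide gaps, with ADAMTS2 at 10.7 to 64.2 CPM in RPE/choroid against 0.335 to 1.15 CPM in retina and ADAMTS14 at 13.1 to 47.3 against 0.0522 to 0.597 CPM, while the other N-proteinase, ADAMTS3, was at 0.983 to 2.67 and 0.0497 to 0.615 CPM. All 5 ADAMTS-like genes were higher in RPE/choroid at every location, from ADAMTSL1 at 118 to 354 against 1.18 to 6.13 CPM and ADAMTSL3 at 30.4 to 157 against 2.21 to 5.36 CPM to ADAMTSL4, a fibrillin-binding protein known from dislocation of the lens, at 23.7 to 41.3 against 4.12 to 9.41 CPM. The remaining members called higher in RPE/choroid at all 4 locations were ADAMTS7, ADAMTS8, ADAMTS9, ADAMTS10, ADAMTS15, ADAMTSL2, ADAMTSL5, MMP8, MMP11 and MMP28. In the fits without nasal libraries, MMP8, MMP19 and ADAMTS14 entered through RPE/choroid, so their direction there followed from the filter. For MMP11 the peripheral call rested on single eyes (adjusted p = 0.368 without the RM03 right eye and 0.153 without the RM03 left eye, against 0.0342).

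The members higher in retina at every location were few. MMP24 (ENSMMUG00000018206), a membrane-type MMP known from neurons, was at 9.95 to 48.8 CPM in retina and 0.150 to 2.70 CPM in RPE/choroid, with a log2 fold change of 5.002 ± 0.45 (SE, adjusted p = 2.69e-09) at the fovea. The others were the collagenase MMP13 (0.895 to 4.54 against 0.0235 to 0.988 CPM), ADAMTS18, known from inherited eye disease (3.90 to 10.6 against 0 to 0.731 CPM), and MMP21, known from left-right patterning (1.43 to 3.20 against 0.735 to 1.82 CPM). The peripheral call of MMP21 had an adjusted p of 0.0191, and 0.0617 to 0.0790 without the RM03 right, RM03 left or RM04 right eye. ADAMTS13, the protease of von Willebrand factor, was called higher in retina at 3 locations and had 10.2 to 25.5 CPM in retina and 6.50 to 17.3 CPM in RPE/choroid. MMP15, MMP17 and ADAMTS5 were called higher in retina at the fovea (3.14, 3.31 and 3.25 on the log2 scale), the perimacula and the nasal location but not at the periphery (adjusted p = 0.0666, 0.153 and 0.655). MMP7 was called higher in retina at 3 locations, ADAMTS16 at 2, and MMP16 and ADAMTS6 at 1 each. ADAMTS1, ADAMTS12 and MMP1 were called higher in RPE/choroid at 3 locations each and ADAMTS17 at the perimacula. In retina MMP1 was at 0 to 0.0718 CPM, at or under the limit of 3 counts. The foveal and perimacular calls of ADAMTS1 and the perimacular and nasal calls of ADAMTS12 were lost without the RM04 right or left eye (adjusted p from 0.0670 to 0.221). The same held for MMP1 at the fovea and nasal location (0.0657 to 0.144) and for ADAMTS17 (0.211 and 0.3005). Without the RM04 left eye alone, the calls of MMP1 at the periphery (0.0626), ADAMTS16 at the fovea (0.100) and MMP15 at the nasal location (0.0850) were lost, and without the RM03 left eye that of MMP17 at the perimacula (0.0641). ADAMTS4, one of the aggrecan-cleaving enzymes, was at 2.55 to 5.75 and 1.63 to 5.20 CPM and passed the test at none of the 4 locations, with log2 fold changes between -0.22 and 0.22.

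The next comparison set the fovea, the point of sharpest vision, against the periphery within neural retina. Of 37 tested members, 24 were called, 11 higher at the fovea and 13 higher at the periphery, and 67.0% of all tested genes were called, so the share of members is near the background. The median size of the log2 fold change over the tested members was 0.80, against 0.58 over all tested genes. Membrane-bound MMPs were higher at the fovea in 4 of 6 and higher at the periphery in 1, and the proteoglycan-cleaving ADAMTS enzymes were higher at the periphery in 4 of 6 tested and at the fovea in 1. Over all tested genes, 31% were called higher at the fovea and 36% higher at the periphery. These groups are small, and differences between them were not tested. Of the retinal calls, 17 were kept under every alternative that tested them. Beside these differences, the summed level of 6 ganglion cell genes was 7363 to 8391 CPM at the fovea and 359 to 774 CPM at the periphery, that of 6 Müller glia genes 1426 to 1617 and 2939.9 to 4488 CPM, and that of 6 pigment epithelium genes, among them RLBP1 that Müller glia also make, 264 to 397 and 1744 to 2398 CPM. The part of cell composition in any member's difference was not tested.

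MMP15 (ENSMMUG00000007052), a transmembrane MMP, had the largest difference of the tested members in retina. It was at 188, 162, 188 and 193 CPM at the fovea and 22.9, 10.7, 21.8 and 16.8 CPM at the periphery, with 52.8 to 107 CPM at the perimacula and 38.4 to 43.1 CPM at the nasal location. The foveal libraries lay above those of every other location. The log2 fold change of fovea over periphery was 3.40 ± 0.25 (SE, adjusted p = 3.98e-07), which is 10.5-fold, and it was 3.48 within RM03 and 3.31 within RM04.

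MMP24 was at 48.6, 46.9, 48.8 and 45.5 CPM at the fovea and 11.7, 9.95, 14.1 and 10.2 CPM at the periphery, which is 2.10 ± 0.12 (SE, adjusted p = 1.04e-07) on the log2 scale. Its values at the perimacula (21.1 to 29.01 CPM) and the nasal location (15.3 to 19.96 CPM) lay between the foveal and the peripheral ones without overlap with either. MMP16, another transmembrane MMP, was at 4.86, 3.32, 4.25 and 4.33 CPM at the fovea and 1.16, 1.03, 2.0 and 1.42 CPM at the periphery (log2 fold change 1.67 ± 0.20 SE, adjusted p = 1.60e-05), again with no overlap. The glycolipid-anchored MMP17 was at 1.58, 4.40, 2.98 and 3.58 CPM at the fovea and 0.980, 0.364, 0.648 and 1.69 CPM at the periphery (log2 fold change 1.85 ± 0.46 SE, adjusted p = 0.00379), and its groups overlapped in 1 eye of each. The other glycolipid-anchored enzyme, MMP25, was called higher at the periphery at very low levels, 0.0165 to 0.0522 CPM at the fovea and 0.0291 to 0.473 CPM at the periphery (adjusted p = 0.0160, in 3 of 4 eyes). No fold is given because the foveal levels lie within the limit that a count of 0 allows, and that call was lost without the RM03 right eye (adjusted p = 0.0814) or the RM04 left eye (0.116). MMP14 was at 18.8, 22.6, 33.4 and 33.98 CPM at the fovea against 31.3, 28.7, 31.5 and 41.3 CPM at the periphery and did not pass the test (adjusted p = 0.0928).

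TIMP1 and TIMP2 moved in opposite directions across the retina. TIMP2 was higher at the fovea (values above), with a log2 fold change of 1.03 ± 0.11 (SE, adjusted p = 4.35e-06), and 46.4 to 60.6 CPM at the perimacula and 39.5 to 51.5 CPM at the nasal location. TIMP1 was higher at the periphery, with a log2 fold change of -1.63 ± 0.16 (SE, adjusted p = 3.60e-06), and 4.0 to 6.09 CPM at the perimacula and 6.52 to 8.02 CPM at the nasal location. In both genes the foveal and peripheral libraries did not overlap, and the direction was the same in 4 of 4 eyes. For TIMP4 the difference did not pass the test (log2 fold change 0.80, adjusted p = 0.328).

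**Figure D2:**
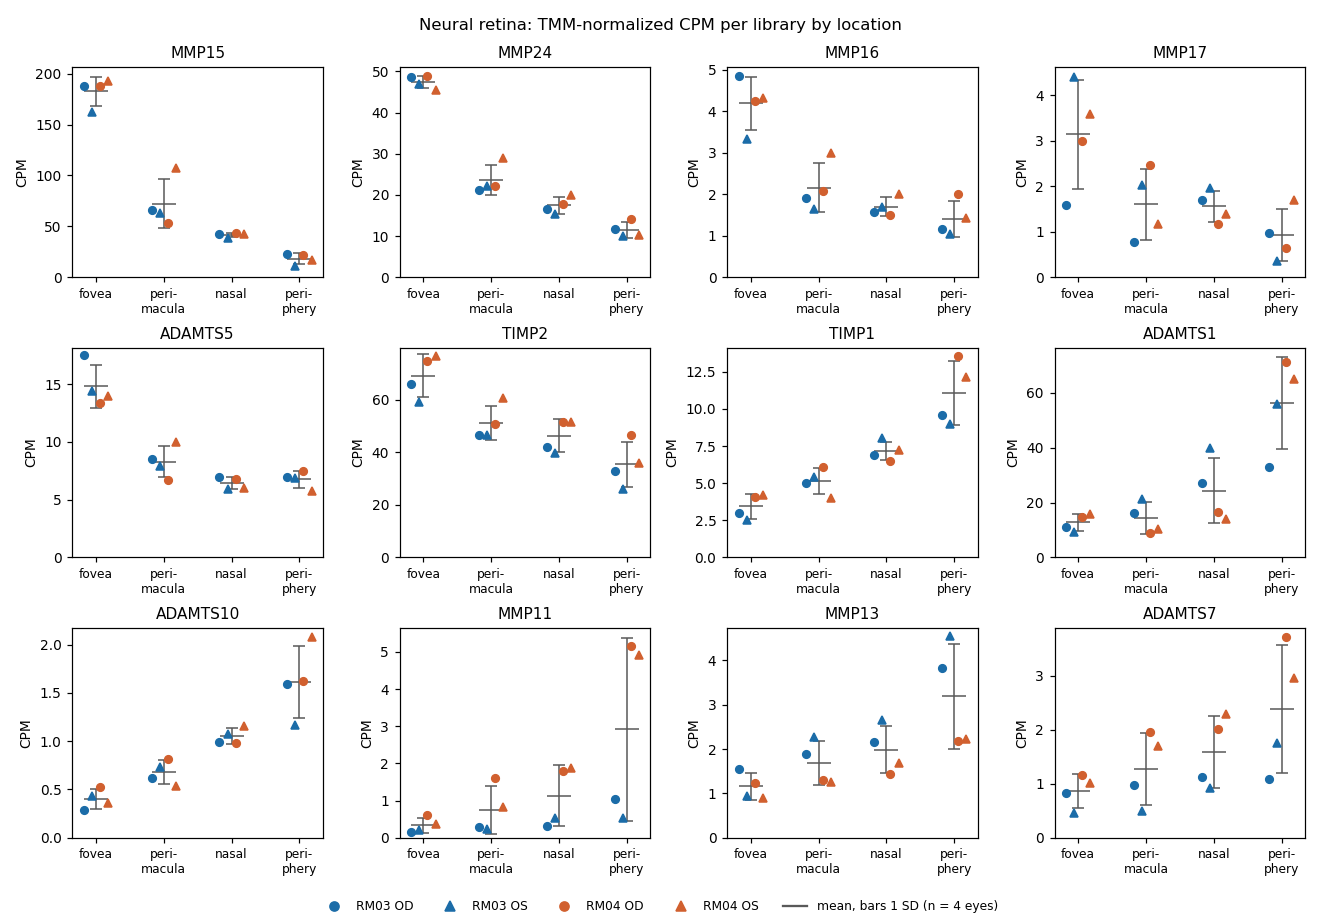
CPM (y axis, from 0) of 12 members in neural retina by location (x axis), with a point per library, colour for the animal and shape for the eye, and the mean with bars of 1 SD (n = 4 eyes). MMP15, MMP24, MMP16, MMP17, ADAMTS5 and TIMP2 are highest at the fovea, and TIMP1, ADAMTS1, ADAMTS10, MMP11, MMP13 and ADAMTS7 have their highest means at the periphery.

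Among the secreted proteases, ADAMTS5 (ENSMMUG00000013405), a main aggrecan- and versican-cleaving enzyme, was at 17.6, 14.4, 13.4 and 13.97 CPM at the fovea and 6.96, 6.88, 7.46 and 5.74 CPM at the periphery (log2 fold change 1.19 ± 0.14 SE, adjusted p = 1.33e-05), with no overlap. ADAMTS1 (ENSMMUG00000013407), a versican-cleaving enzyme of the same group, was opposite, at 11.2, 9.43, 14.6 and 15.8 CPM at the fovea and 32.8, 55.9, 71.2 and 65.1 CPM at the periphery (log2 fold change -2.09 ± 0.31 SE, adjusted p = 8.31e-05), again with no overlap. ADAMTS9, ADAMTS15 and ADAMTS4, of the same group, were higher at the periphery by log2 fold changes of -2.23, -0.57 and -0.55, the first at levels of 0.0497 to 0.226 and 0.379 to 0.766 CPM. The ADAMTS15 call was lost without the RM03 right eye (adjusted p = 0.0592). ADAMTS8 was at 0.267 to 0.547 and 0.497 to 0.867 CPM and did not pass the test.

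ADAMTS10, a fibrillin-associated enzyme known from Weill-Marchesani syndrome, was at 0.287, 0.435, 0.527 and 0.365 CPM at the fovea and 1.59, 1.17, 1.62 and 2.08 CPM at the periphery (log2 fold change -1.93 ± 0.24 SE, adjusted p = 1.68e-05). Its perimacular (0.535 to 0.818 CPM) and nasal (0.985 to 1.16 CPM) values lay between, each apart from the foveal ones. The pair that cleaves cartilage oligomeric matrix protein split: ADAMTS7 was at 0.820, 0.453, 1.17 and 1.01 CPM at the fovea and 1.09, 1.75, 3.72 and 2.96 CPM at the periphery (log2 fold change -1.35 ± 0.27 SE, adjusted p = 0.000771), while ADAMTS12 was at 10.99, 9.80, 8.53 and 7.94 CPM at the fovea against 5.30, 6.02, 5.30 and 4.90 CPM at the periphery (log2 fold change 0.84 ± 0.18 SE, adjusted p = 0.00110). The foveal and peripheral groups of ADAMTS7 overlapped through the RM03 right eye at the periphery, although each eye had the same direction.

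MMP11, a stromelysin activated inside the cell, was at 0.164, 0.209, 0.609 and 0.381 CPM at the fovea and 1.05, 0.524, 5.16 and 4.92 CPM at the periphery (log2 fold change -2.77 ± 0.35 SE, adjusted p = 2.14e-05). The peripheral eyes of RM04 stood well above those of RM03, of which the left eye overlapped the foveal group, and the within-animal log2 differences were -1.83 in RM03 and -3.29 in RM04. MMP13 was at 1.56, 0.940, 1.24 and 0.895 CPM at the fovea and 3.83, 4.54, 2.18 and 2.22 CPM at the periphery (log2 fold change -1.34 ± 0.21 SE, adjusted p = 0.000113), here with the RM03 eyes higher. ADAMTSL5 was at 1.05, 1.93, 2.98 and 2.93 CPM at the fovea against 0.527, 1.27, 1.13 and 0.733 CPM at the periphery (log2 fold change 1.31 ± 0.34 SE, adjusted p = 0.00481), and the RM03 right eye at the fovea overlapped the peripheral group. MMP2 was at 48.6, 47.9, 51.0 and 53.7 CPM at the fovea and 29.6, 17.8, 50.6 and 29.5 CPM at the periphery (log2 fold change 0.75 ± 0.19 SE, adjusted p = 0.00429), where the RM04 right eye overlapped the foveal group.

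The remaining calls in retina, those of ADAMTS16, MMP21, MMP7, ADAMTSL3 and ADAMTSL4, had log2 fold changes of 1.15, 0.50, -1.06, -0.41 and -0.42 and adjusted p of 0.0386, 0.0104, 0.0182, 0.0337 and 0.00382. Leaving out an eye took ADAMTS16 (RM04 right, adjusted p = 0.116, or RM04 left, 0.195), MMP7 (RM03 left, 0.141, or RM04 left, 0.0828) and ADAMTSL3 (RM03 right, 0.0739, RM03 left, 0.0998, or RM04 left, 0.113) past the threshold. Over 13 alternatives, the MMP21 call was lost in 2 and the ADAMTSL4 call in 1, with adjusted p up to 0.0982 and 0.133. The tested members that were not called were MMP9, MMP14, MMP28, TIMP4, ADAMTS2, ADAMTS3, ADAMTS6, ADAMTS8, ADAMTS13, ADAMTS17, ADAMTS18, ADAMTSL1 and ADAMTSL2, with log2 fold changes from -0.50 (ADAMTS8) to 0.80 (TIMP4).

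Libraries of the fovea, perimacula and nasal location can be compared on the same pair of flow cells. Between fovea and perimacula in retina, 13 of 37 tested members were called, 8 higher at the fovea, with 35.2% of genes called, and between fovea and nasal location 16 of 38, 7 higher at the fovea, with 52.2% of genes called. The values of the 2 comparisons share the foveal libraries. Without the RM03 right eye the perimacular count was 6, with no share over all genes set beside it. That lower count therefore cannot be read as particular to the members. MMP15 had log2 fold changes of 1.40 ± 0.24 (SE, adjusted p = 0.00100) over the perimacula and 2.18 ± 0.22 (SE, adjusted p = 1.58e-06) over the nasal location. For MMP24 they were 1.07 ± 0.12 (SE, adjusted p = 0.000101) and 1.49 ± 0.11 (SE, adjusted p = 2.18e-07), for MMP16 1.04 and 1.34, and for ADAMTS5 0.89 and 1.24. ADAMTS12 gave 0.94 and 1.19. The calls of these 5 genes were kept under every alternative in both comparisons.

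TIMP2 was higher at the fovea than at the perimacula (log2 fold change 0.49 ± 0.11 SE, adjusted p = 0.00412, with an adjusted p of 0.0517 without the RM03 right eye) and the nasal location (log2 fold change 0.62 ± 0.10 SE, adjusted p = 8.42e-05). TIMP1 was lower at the fovea than at the nasal location (log2 fold change -1.04 ± 0.17 SE, adjusted p = 0.000126), while its perimacular difference (log2 fold change -0.54 ± 0.16 SE, adjusted p = 0.0230, 3 of 4 eyes) was lost without the RM03 right, RM03 left or RM04 right eye (adjusted p = 0.1295, 0.1297 and 0.103). Both nasal calls were kept under every alternative. ADAMTS1 did not pass the test in either comparison (adjusted p = 0.777 and 0.0563), with 16.3, 21.5, 9.07 and 10.4 CPM at the perimacula and 26.98, 39.8, 16.7 and 13.9 CPM at the nasal location. MMP11, ADAMTS7 and MMP13 were called lower at the fovea than at the nasal location (-1.58, -0.80 and -0.71) and not called against the perimacula (adjusted p = 0.0686, 0.240 and 0.127). The ADAMTS7 call was lost without the RM04 right or left eye (adjusted p = 0.0572 and 0.108), and the MMP13 call without the RM04 left eye (0.0535). MMP14, uncalled against the periphery, was called lower at the fovea than at the perimacula (-0.37, adjusted p = 0.0472) and the nasal location (-0.50, 0.00905). The perimacular MMP14 call was lost without any 1 of the eyes (adjusted p = 0.0642 to 0.149) and with the eye as a block (0.0601), and the nasal call without the RM03 right or left eye (0.0800 and 0.0696). With the eye as a block, the perimacular calls of ADAMTS10, ADAMTS17 and ADAMTS18 were also lost (adjusted p = 0.0741, 0.0521 and 0.0738). Of the 13 alternatives that tested them, 9, 5 and 7 lost these calls, with adjusted p up to 0.814, 0.176 and 0.160.

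From fovea through perimacula to periphery, the mean log2 level rose at both steps in 10 of 37 retinal members and fell at both in 10, where 65.8% of genes moved one way at both steps. By direction, 5612 of 15380 genes rose and 4507 fell. In RPE/choroid the level rose in 16 of 40 members and fell in 5, where the share was 57.2%. There, 4774 of 15674 genes rose and 4190 fell.

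In RPE/choroid, the fovea-periphery comparison gave 15 calls among 40 tested members, 5 higher at the fovea and 10 higher at the periphery, where 44.1% of all tested genes were called. The median log2 fold change of the tested members was -0.33, against -0.06 over all tested genes. Without the RM04 left eye the count was 8, and it was 8 without the 3 libraries high in rod genes and 14 without the 4 high in Schwann cell genes. The shares over all genes in those fits are not set beside these counts. The lower counts therefore cannot be read as particular to the members. Beside these differences, 7 fibroblast genes summed to 2946 to 3836 CPM at the fovea and 5099 to 10284 CPM at the periphery, and 6 smooth muscle and pericyte genes to 5904 to 9162 and 1042 to 2523 CPM. The sums were 1776 to 2726 and 1201 to 1612 CPM for 7 endothelial genes, 4867 to 6517 and 8374 to 10468 CPM for 4 melanocyte genes, and 269 to 344 and 483 to 10134 CPM for the Schwann cell genes. Of the 4 melanocyte genes, 1 was called higher at the fovea and 2 at the periphery. Their mean log2 level was 9.28 at the fovea and 9.23 at the periphery. The paper names PMEL, 1 of the 4, among RPE genes, so their sum does not stand for melanocytes alone. The part of any of these cell types in the differences was not tested. The fibroblast sum holds DCN, at 866 to 1951 CPM at the fovea and 2818 to 6757 CPM at the periphery, and LUM. Both genes appear again among the substrates below, so the sum and those results share values. Only the calls of ADAMTS1, ADAMTS5, ADAMTS15 and ADAMTSL2 were kept under every alternative run.

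**Figure D3:**
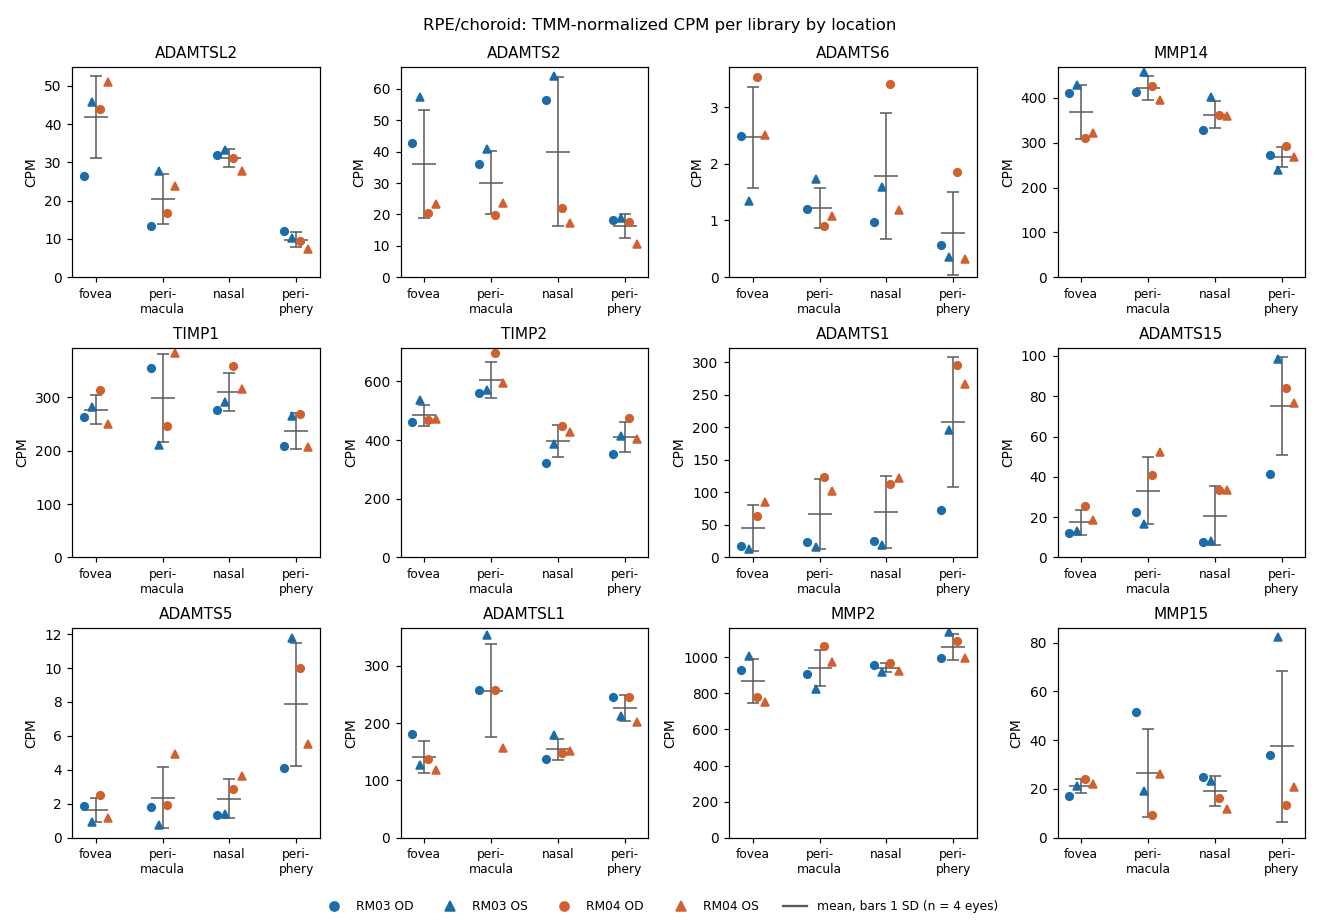
CPM (y axis, from 0) of 12 members in RPE/choroid by location (x axis), drawn as for the retina with a point per library and the mean with bars of 1 SD (n = 4 eyes). ADAMTSL2 is highest at the fovea, ADAMTS1, ADAMTS15 and ADAMTS5 rise at the periphery in both animals, and ADAMTS1 is lower in RM03 than in RM04 at each location.

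ADAMTSL2 (ENSMMUG00000017203), a fibrillin-binding protein without protease activity known from geleophysic dysplasia, was the member most raised at the fovea. It was at 26.4, 45.8, 44.0 and 51.0 CPM at the fovea and 12.1, 10.1, 9.56 and 7.30 CPM at the periphery, with 13.4 to 27.9 CPM at the perimacula and 27.7 to 33.2 CPM at the nasal location. Fovea and periphery did not overlap, and the log2 fold change was 2.09 ± 0.28 (SE, adjusted p = 0.000173).

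ADAMTS1, ADAMTS15 and ADAMTS5, which cut versican and related proteoglycans, were higher at the periphery. ADAMTS1 was at 17.2, 13.4, 64.3 and 85.7 CPM at the fovea and 73.2, 196, 296 and 267 CPM at the periphery (log2 fold change -2.58 ± 0.36 SE, adjusted p = 0.000240). The animals started from different levels, and the groups overlapped although the level was higher at the periphery in each eye, by a mean log2 difference of -2.98 (fovea over periphery) in RM03 and -1.92 in RM04. ADAMTS15 was at 12.4, 13, 25.6 and 18.5 CPM at the fovea and 41.3, 98.2, 84.2 and 76.8 CPM at the periphery (log2 fold change -2.19 ± 0.29 SE, adjusted p = 0.000150), and ADAMTS5 at 1.84, 0.936, 2.53 and 1.16 CPM at the fovea against 4.08, 11.8, 10.01 and 5.55 CPM at the periphery (log2 fold change -2.32 ± 0.53 SE, adjusted p = 0.00501), both without overlap. ADAMTS12 was at 3.18, 3.81, 21.5 and 21.4 CPM at the fovea against 18.5, 14.3, 39.9 and 43.7 CPM at the periphery (log2 fold change -1.63 ± 0.24 SE, adjusted p = 0.000362), and without the animal as a covariate its adjusted p was 0.246. The other enzymes of the proteoglycan group, ADAMTS4, ADAMTS8 and ADAMTS9, had log2 fold changes of -0.37, -0.14 and -0.53 and did not pass the test.

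ADAMTS2, the main procollagen N-proteinase, was at 42.8, 57.4, 20.5 and 23.5 CPM at the fovea and 18.1, 18.97, 17.7 and 10.7 CPM at the periphery (log2 fold change 1.02 ± 0.20 SE, adjusted p = 0.00166), and without the libraries high in Schwann cell genes the adjusted p was 0.0608. ADAMTS6, a fibrillin-associated enzyme, was at 2.49, 1.34, 3.53 and 2.52 CPM at the fovea against 0.567, 0.354, 1.86 and 0.328 CPM at the periphery (log2 fold change 1.69 ± 0.55 SE, adjusted p = 0.0272), with the RM04 right eye at the periphery above the lowest foveal eye, a call lost without the RM03 right, RM03 left or RM04 left eye (adjusted p = 0.125, 0.0612 and 0.0850). ADAMTS7 was at 5.71, 7.11, 14.4 and 18.5 CPM at the fovea against 2.47, 5.62, 9.01 and 8.12 CPM at the periphery (log2 fold change 0.80 ± 0.22 SE, adjusted p = 0.0122), a call lost without the RM04 right or left eye (0.0567 and 0.107). All 3 were higher at the fovea in 4 of 4 eyes. Over 15 alternatives, the ADAMTS6 call was lost in 5 and the ADAMTS7 call in 4, with adjusted p up to 0.251 and 0.189.

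MMP14 was at 410.3, 428, 311 and 322 CPM at the fovea and 272, 239, 293 and 268 CPM at the periphery (log2 fold change 0.44 ± 0.11 SE, adjusted p = 0.00738), without overlap, but the adjusted p was 0.0502 without the RM03 right eye and 0.124 without the libraries high in Schwann cell genes. ADAMTSL1 was at 181, 127, 138 and 118 CPM at the fovea against 246, 212, 245 and 202 CPM at the periphery (log2 fold change -0.71 ± 0.19 SE, adjusted p = 0.0118), with its highest mean at the perimacula (157 to 354 CPM), and without the libraries high in rod genes its adjusted p was 0.0615. ADAMTSL4 was at 23.8, 27.9, 25.4 and 23.7 CPM at the fovea against 26.2, 41.3, 40.4 and 36.8 CPM at the periphery (log2 fold change -0.52 ± 0.15 SE, adjusted p = 0.0170), with 0.0971 without the RM04 right and 0.0795 without the RM04 left eye.

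MMP2 was at 927, 1007, 780.3 and 750.0 CPM at the fovea and 994, 1142, 1092 and 997 CPM at the periphery, which is -0.30 ± 0.11 (SE, adjusted p = 0.0470) on the log2 scale, with overlapping groups, and the call was lost with the eye as a block (adjusted p = 0.0712). ADAMTS13 (-0.54, adjusted p = 0.0480) was also lost with the block (0.0838), and the calls of MMP2, ADAMTS13, ADAMTS18 and MMP13 were each lost without the RM03 right eye (adjusted p = 0.0877, 0.200, 0.104 and 0.0829). These 4 calls were lost as well without the RM04 right eye (0.178, 0.254, 0.0682 and 0.107) or the RM04 left eye (0.194, 0.147, 0.0614 and 0.173), and that of ADAMTS18 without the RM03 left eye (0.0791). Over the alternatives that tested them, the MMP2 call was lost in 10 of 15 and the ADAMTS13 call in 9 of 15. The ADAMTS18 call was lost in 9 of 14 and the MMP13 call in 8 of 14. The adjusted p reached 0.194, 0.465, 0.211 and 0.353 in the same order. ADAMTS18 and MMP13 were below 1 CPM in every RPE/choroid library. Neither TIMP1 (0.22, adjusted p = 0.359) nor TIMP2 (0.23, 0.0653) nor TIMP4 (0.08, 0.918) passed the test in RPE/choroid. This does not cover TIMP3, which is not a member and which the paper lists as differing by location in RPE/choroid. The other members that did not pass were MMP1, MMP8, MMP9, MMP11, MMP15, MMP16, MMP17, MMP19, MMP21, MMP24, MMP25, MMP28, ADAMTS3, ADAMTS4, ADAMTS8, ADAMTS9, ADAMTS10, ADAMTS14, ADAMTS16, ADAMTS17, ADAMTSL3 and ADAMTSL5.

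No member was called in RPE/choroid between fovea and perimacula (0 of 40, with 0.0447% of genes called) or between fovea and nasal location (0 of 41, with 0.361% called) in the edgeR test. At an unadjusted p under 0.05 there were 6 members against the perimacula (ADAMTS14, ADAMTS15, ADAMTS18, ADAMTSL1, ADAMTSL2 and TIMP2) and 4 against the nasal location (MMP19, ADAMTSL4, TIMP2 and ADAMTS14). DESeq2 called 2 against the perimacula, ADAMTSL1 (lower at the fovea) and ADAMTSL2 (higher), and none against the nasal location. In edgeR these had log2 fold changes of -0.84 ± 0.19 (SE, adjusted p = 0.161) and 1.03 ± 0.27 (SE, adjusted p = 0.210). TIMP2 was at 562, 570.3, 696 and 597 CPM at the perimacula, above every foveal eye, with an edgeR adjusted p of 0.287. With the compared groups alone in the edgeR fit, ADAMTS12 and ADAMTS15 were called against the perimacula and MMP19 against the nasal location. No shares over all genes are set beside the unadjusted, DESeq2 or compared-group counts. None of these counts can therefore be read as an excess of members.

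**Figure D4:**
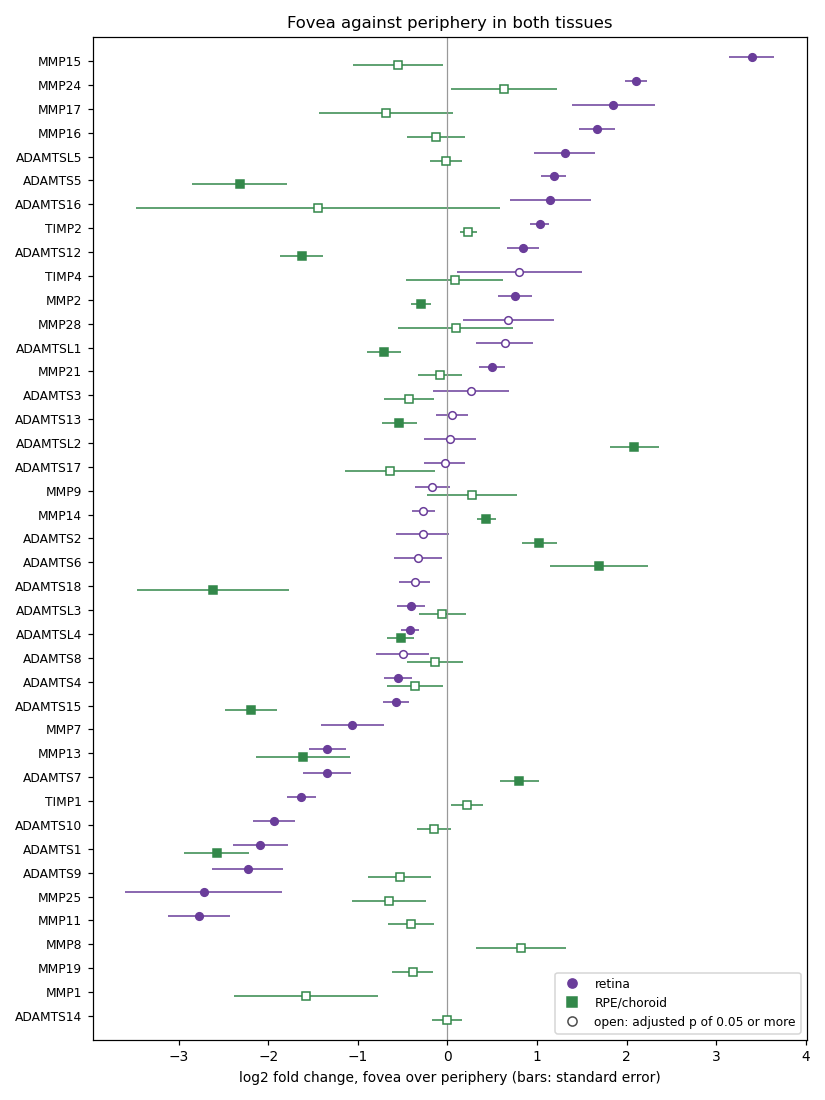
log2 fold change of fovea over periphery (x axis) with its standard error for every member tested in retina or RPE/choroid (rows, ordered by the retinal value). Circles are retina and squares RPE/choroid, filled where the adjusted p is under 0.05. MMP15 is the highest retinal point, and ADAMTS5 and ADAMTS12 lie on opposite sides of 0 in the tissues.

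Whether the fovea-periphery difference itself differed between the tissues was tested as an interaction. It was called for 21 of 41 tested members, 11 with a more positive difference in retina and 10 with a more negative one, where 40.2% of genes were called. Among the 21, ADAMTS14 and MMP8 were too low in retina for the test there and entered through RPE/choroid. Of 36 members tested in both tissues, 8 were called in both (8 of 24 retinal and 8 of 15 RPE/choroid calls), where 31.9% of genes were called in both and 7.11% in opposite directions: ADAMTS1, ADAMTS15, ADAMTSL4 and MMP13 in the same direction, and ADAMTS5, ADAMTS12, ADAMTS7 and MMP2 in opposite ones.

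ADAMTS5 was 2.27-fold higher at the fovea in retina and 4.998-fold higher at the periphery in RPE/choroid, and the interaction was 3.45 ± 0.58 (SE, adjusted p = 9.94e-05). For ADAMTS12 it was 2.25 ± 0.69 (SE, adjusted p = 0.0138), for MMP2 0.99 ± 0.26 (SE, adjusted p = 0.00457) and for ADAMTS7 -2.17 ± 0.35 (SE, adjusted p = 5.63e-05). The ADAMTS5 and ADAMTS7 calls were kept under every alternative, while that of ADAMTS12 was lost without the RM03 right eye (adjusted p = 0.0765) and that of MMP2 without the RM04 left eye (0.0508). ADAMTS1 rose toward the periphery in both tissues, and its interaction of 0.28 was not called (adjusted p = 0.784). MMP15 had the largest interaction, 4.09 ± 0.66 (SE, adjusted p = 6.12e-05), with 17.3, 21.4, 24.1 and 22.1 CPM at the fovea and 33.9, 82.3, 13.3 and 20.7 CPM at the periphery of RPE/choroid. The RPE/choroid difference alone was not called (adjusted p = 0.404). MMP15 was at 26.1 to 82.3 CPM in the 4 RPE/choroid libraries high in Schwann cell genes and at 9.44 to 24.98 CPM in the other 12. No other member was apart in this way, and 0.665% of all tested genes were.

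TIMP1 and TIMP2 both differed between the tissues, with interactions of -1.87 ± 0.26 (SE, adjusted p = 1.25e-05) and 0.76 ± 0.15 (SE, adjusted p = 0.000558), called under every alternative. MMP8, the neutrophil collagenase, passed the interaction test (adjusted p = 0.0379), but it was too low for the test within retina and entered this one through RPE/choroid, so no size is given: it was at 0.0205, 0, 0 and 0.0166 CPM in foveal and 0.138, 0.0437, 0.0135 and 0.0118 CPM in peripheral retina and at 3.67, 1.38, 0.308 and 0.279 CPM at the fovea against 1.35, 0.547, 0.146 and 0.355 CPM at the periphery in RPE/choroid. That call was lost without the RM03 right, RM03 left or RM04 right eye (adjusted p = 0.278, 0.0880 and 0.128). MMP11 gave -2.40 ± 0.72 (SE, adjusted p = 0.0112), with 3.38, 3.52, 4.83 and 3.89 CPM at the fovea against 7.24, 3.28, 6.04 and 3.91 CPM at the periphery in RPE/choroid, and its adjusted p was 0.101 without the RM04 left eye. MMP16 (log2 fold change 1.71 ± 0.38 SE, adjusted p = 0.00130), ADAMTS15 (1.57), ADAMTS10 (-1.82) and ADAMTSL2 (-2.11) were also called under every alternative that tested them. MMP24 passed narrowly (log2 fold change 1.42 ± 0.56 SE, adjusted p = 0.0483) and was lost with the eye as a block (adjusted p = 0.0637) and without the RM03 right, RM03 left or RM04 right eye (0.119, 0.136 and 0.260).

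Within shared flow cells, the interaction of tissue with fovea against nasal location was called for 8 of 42 tested members, where 23.5% of genes were called. The 4 largest were MMP15 (log2 fold change 1.94 ± 0.58 SE, adjusted p = 0.0153), MMP24 (log2 fold change 1.75 ± 0.55 SE, adjusted p = 0.0211), MMP16 (log2 fold change 1.74 ± 0.38 SE, adjusted p = 0.00125) and ADAMTS5 (log2 fold change 1.69 ± 0.55 SE, adjusted p = 0.0251), all more positive in retina. ADAMTS10 (-1.43), ADAMTSL2 (-1.13), ADAMTS7 (-1.12) and TIMP1 (-0.91) were more negative. Only the call of MMP16 was kept under every alternative, and that of ADAMTS10 was kept without any 1 of the eyes. The count was 3 without the RM03 right eye, 5 without the RM04 right eye and 5 without the RM04 left eye, with no shares over all genes set beside these counts. They therefore cannot be read as particular to the members. Without the RM03 right eye the adjusted p was 0.107 for MMP15, 0.186 for MMP24, 0.0615 for ADAMTS5 and 0.0701 for TIMP1. MMP24 and TIMP1 were also lost without the RM03 left eye (0.0984 and 0.0828), and ADAMTS5 and ADAMTS7 without the RM04 right (0.0703 and 0.156) or RM04 left eye (0.0997 and 0.313). ADAMTSL2 was lost without any 1 of the eyes (0.0733 to 0.246).

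In RPE/choroid some members separated the animals. With 2 animals this is a description and no test of a trait. In 5 of 41 members all 8 libraries of an animal lay above all 8 of the other, where 5.09% of tested genes did so. MMP19 was at 23.2 to 47.0 CPM in RM03 and 6.65 to 16.4 CPM in RM04, and MMP8 at 0.547 to 6.78 and 0.146 to 0.423 CPM. ADAMTS12 was the other way, at 3.18 to 18.5 CPM in RM03 and 21.4 to 43.7 CPM in RM04, as were ADAMTS7 (2.47 to 7.499 and 8.12 to 18.5 CPM) and MMP1, the interstitial collagenase (0 to 0.0820 and 0.156 to 1.48 CPM). In retina only ADAMTS16 of 38 members separated the animals (0.0728 to 0.513 CPM in RM03 and 0.750 to 3.72 CPM in RM04), where 3.80% of genes did. MMP9 was at 218, 189, 50.8 and 49.9 CPM at the fovea, with the RM03 eyes far above those of RM04, and at 90.7, 33.8, 93.4 and 99.8 CPM at the periphery, where both RM04 eyes were above both RM03 eyes. It is named after its values were seen. Beside these values, 6 macrophage and microglia genes summed to 848 to 2013 CPM at the fovea, 2013 and 1892 CPM in RM03 and 848 and 1036 CPM in RM04. At the periphery they summed to 1700.5 and 1586 CPM in RM03 and 1186 and 1288 CPM in RM04, so this sum was higher in RM03 at both sites. The part of these cells was not tested.

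**Figure D5:**
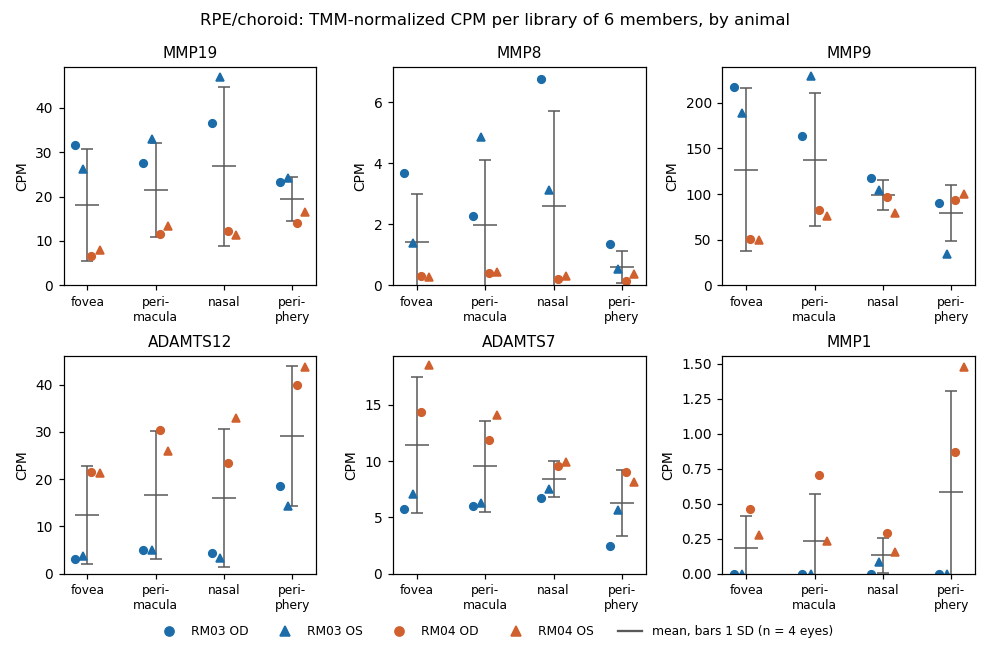
CPM (y axis, from 0) of 6 members in RPE/choroid by location (x axis), with a point per library and colour for the animal. MMP19 and MMP8 are higher in RM03 in all libraries, ADAMTS12, ADAMTS7 and MMP1 in RM04, and MMP9 is higher in RM03 at the fovea and lower in RM03 at the periphery, with the bars of 1 SD cut at 0.

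Other proteases, regulators and substrates of the same matrix were counted in 6 lists. In retina, 12 of 13 tested substrates of MMP and ADAMTS enzymes were called between fovea and periphery, 11 of them higher at the periphery, beside 67.0% of all tested genes called and 36% called higher at the periphery. Fibromodulin (FMOD) was at 0.593 to 1.52 CPM at the fovea and 23.9 to 45.1 CPM at the periphery (log2 fold change -4.79 ± 0.29 SE, adjusted p = 1.07e-07) and fibrillin 1 (FBN1) at 2.73 to 3.91 and 22.1 to 31.2 CPM (log2 fold change -3.01 ± 0.16 SE, adjusted p = 7.39e-08). Brevican (BCAN), a proteoglycan of nerve tissue, was the substrate higher at the fovea, at 24.4 to 30.7 against 3.45 to 7.82 CPM (log2 fold change 2.26 ± 0.20 SE, adjusted p = 1.55e-06). In the other lists, whose shares lie below 67.0%, calls were 3 of 7 cell surface ADAM proteases (1 higher at the fovea), 3 of 6 of the plasminogen system (1), 5 of 9 convertases and tolloids (4), 4 of 7 cathepsins and cystatins (1) and 5 of 9 other inhibitors and inducers (2). The tolloid protease TLL1 was at 17.9 to 24.4 CPM at the fovea and 1.59 to 3.67 CPM at the periphery (log2 fold change 3.04 ± 0.28 SE, adjusted p = 1.61e-06), the proteoglycan SPOCK2 at 1352 to 1610.4 and 165 to 338 CPM (log2 fold change 2.57 ± 0.19 SE, adjusted p = 3.80e-07), and the protease inhibitor TFPI2 at 9.23 to 18.1 and 47.9 to 75.8 CPM (log2 fold change -1.98 ± 0.17 SE, adjusted p = 1.08e-06).

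In RPE/choroid, 25 of 56 tested genes of the 6 lists were called, near the background of 44.1%. The calls were 6 of 15 substrates (3 higher at the fovea), 4 of 8 ADAM proteases (2), 4 of 7 of the plasminogen system (3), 1 of 9 convertases and tolloids (1), 6 of 8 cathepsins and cystatins (3) and 4 of 9 other inhibitors and inducers (2). Aggrecan (ACAN), the large proteoglycan that ADAMTS4 and ADAMTS5 cut, was at 2.16 to 6.40 CPM at the fovea and 0 to 0.0146 CPM at the periphery (adjusted p = 4.78e-06), with no fold given because the periphery is below the limit that a count of 0 allows. The small proteoglycans went both ways, with biglycan (BGN) at 1062 to 2036 against 365 to 489 CPM (log2 fold change 1.62 ± 0.15 SE, adjusted p = 1.59e-05), decorin (DCN) at 866 to 1951 against 2818 to 6757 CPM (log2 fold change -2.07 ± 0.36 SE, adjusted p = 0.000907) and lumican (LUM) at 27.8 to 233 against 202 to 535 CPM (log2 fold change -2.32 ± 0.55 SE, adjusted p = 0.00598). The protease ADAM33 was at 0.959 to 2.35 against 2.25 to 5.70 CPM (log2 fold change -1.25 ± 0.36 SE, adjusted p = 0.0172). No gene of the 6 lists was called in RPE/choroid between fovea and perimacula.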

How the data were processed

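Neural retina and RPE/choroid of 4 eyes from 2 rhesus macaques were profiled at 4 locations by poly-A, paired-end RNA-seq. The authors quantified reads with Salmon 0.13 on Mmul_8.0.1 transcripts, summarised them to genes with tximport using length-scaled values and named genes through human orthologs. The deposited values are estimated counts per gene, under a column named for TPM, in 136 lane files. They are whole-transcript estimates, so reads shared by near-identical genes were divided by the authors' software.

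Here the lane files of each library were summed (42448903 to 78574055 estimated counts, rounded to whole numbers), and 19432 entries were reduced to 19422 gene identifiers by keeping 1 entry of each of 10 identifiers that were listed again. Members, roles and lists were chosen with earlier results of these data known. CPM were computed with TMM factors (0.896 to 1.09) in edgeR 4.0.16 (R 4.3.3, limma 3.58.1). Genes passing edgeR's filter at a minimum count of 10 were tested by its quasi-likelihood test, with the animal as covariate, and p-values were adjusted by Benjamini-Hochberg over every gene tested, at a threshold of 0.05. For tests between tissues and for the interactions, both tissues entered the fit. Nasal libraries entered only the fits that compared them. Standard errors were derived from the fold change and its F statistic and are approximate. Log2 values within animals and over location steps used a prior count of 2, which understates those of low genes.

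Values in every eye are given for TIMP1, TIMP2 and TIMP4, for the 6 members most raised and the 6 most lowered between fovea and periphery in each tissue among those called, with a mean of at least 1 CPM at either location and the same direction in 4 eyes, and for the 4 largest called interactions. Ranges are given for the 3 highest and 3 lowest genes of the other lists by the same rule. 1 of these genes is not reported here. Other members are given by range or name, and those given by eye beyond this rule were chosen after their values were seen. Numbers 1 to 4 of the replicates mark the same eye in every group, so they pair the libraries. Deviations of same-eye libraries from their group means correlated at 0.172 to 0.790 in retina and 0.177 to 0.565 in RPE/choroid. As a check for a library deposited more than once, the variance between fellow eyes was set against that of counting, and it was 4.32 to 62.1 times as large. Shares of 0 are given with the limit of 3 counts, which covers counting error only.

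Alternatives were DESeq2 1.42.0, RLE normalization, other low-count filters, the eye as a block, no covariate, other sets of libraries in the fit, 2 lanes per library and each eye left out. Leaving out libraries high in Schwann cell or rod genes was added after the data were seen. The test was checked on simulated data. Tables used Python 3.11.15, numpy 2.4.6 and pandas 2.3.3, and plots matplotlib 3.10.9.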

Additional observations from a re-analysis of the deposited data

Results flagged for a closer look

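In 7 of 164 groups of 4 eyes, 1 eye stood apart from the other three by Dixon's criterion, which chance meets in about 1 in 20 groups. In retina, MMP15 at the fovea was 162 CPM in RM03 left against 188 to 193 CPM, MMP24 at the perimacula 29.01 CPM in RM04 left against 21.1 to 22.2 CPM, ADAMTSL1 at the perimacula 5.16 CPM in RM04 left against 2.60 to 2.85 CPM, and ADAMTS15 at the periphery 6.62 CPM in RM04 right against 4.02 to 4.22 CPM. In RPE/choroid, TIMP2 at the fovea was 537 CPM in RM03 left against 461 to 473 CPM, ADAMTS2 at the periphery 10.7 CPM in RM04 left against 17.7 to 18.97 CPM, and ADAMTS6 at the periphery 1.86 CPM in RM04 right against 0.328 to 0.567 CPM.

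The difference between fovea and periphery differed between the tissues, by the interaction test, in 21 members. On the log2 scale, retina minus RPE/choroid, it was 4.09 for MMP15, 3.45 for ADAMTS5, 2.25 for ADAMTS12, 1.71 for MMP16, 1.57 for ADAMTS15, 1.54 for ADAMTS14, 1.42 for MMP24, 1.31 for ADAMTSL5, 1.27 for ADAMTSL1, 0.99 for MMP2 and 0.76 for TIMP2. It was -2.95 for MMP8, -2.40 for MMP11, -2.17 for ADAMTS7, -2.11 for ADAMTSL2, -2.08 for ADAMTS6, -1.87 for TIMP1, -1.82 for ADAMTS10, -1.73 for ADAMTS9, -1.39 for ADAMTS2 and -0.73 for MMP14. MMP8 and ADAMTS14 were too low in retina for the test within retina and entered the joint fit through RPE/choroid, so their values do not rest on a measured retinal change. Leaving out 1 eye ended the call of ADAMTS14 (RM04 right, adjusted p = 0.0812, or RM04 left, 0.322), ADAMTSL5 (the same eyes, 0.105 and 0.147), ADAMTSL1 (RM03 left, 0.0872), ADAMTS6 (RM03 right, 0.0774, or RM04 left, 0.0648) and ADAMTS2 (the same eyes, 0.109 and 0.0664). It also ended those of MMP14 (RM03 right, 0.107, or RM03 left, 0.151) and ADAMTS9 (RM03 right, 0.0710, RM04 right, 0.175, or RM04 left, 0.162).

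Between fovea and nasal location the interaction was called in 8 members, with 1.94 for MMP15, 1.75 for MMP24, 1.74 for MMP16, 1.69 for ADAMTS5, -1.43 for ADAMTS10, -1.13 for ADAMTSL2, -1.12 for ADAMTS7 and -0.91 for TIMP1 on the log2 scale.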

How the results depend on the processing

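Of 3141 values of called members recomputed under the alternatives that tested them, 2899 stayed past the threshold, 242 did not and 0 changed direction. With the eye as a block, which pairs the libraries, the counts of called members were 24 (retina, fovea against periphery), 13 (RPE/choroid, the same), 9 (retina, fovea against perimacula) and 17 (retina, fovea against nasal location), with 20 and 8 interactions, and the calls it ended are given beside the results. For fovea against periphery in RPE/choroid, 15 members were called, 8 without the RM04 left eye or without the 3 libraries high in rod genes, and leaving out 1 eye gave 8 to 13. For fovea against perimacula in retina, 13 were called, 8 with no covariate and 6 to 10 with 1 eye left out, fewest without the RM03 right eye. For the interaction with fovea against nasal location, 8 were called and 3 to 7 with 1 eye left out. In RPE/choroid the count of 0 became 2 against the perimacula with DESeq2 and 2 with the compared groups alone (ADAMTS12 and ADAMTS15), and 1 against the nasal location with the compared groups alone (MMP19). Requiring 10 counts in every library left 27 members for the tissue comparison, of which 23 (fovea), 22 (nasal location) and 21 (periphery) were called. For ADAMTS12 and ADAMTS7, which separated the animals in RPE/choroid, the fovea-periphery calls there were lost with no covariate. Shares over all genes under the alternatives are not set beside the counts of called members. A lower count therefore cannot be read as particular to the members. The causes of these changes were not tested. With 2 animals, differences between animals carry no test, location and flow cell stay confounded for the periphery, and at levels near 3 counts no absence can be read.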
